A study of Mus musculus with 12 samples.

Results

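The comparison described here asked what an antibody against PD-L1 added in tumours of mice that also received the peptide minP1. This peptide is part of the chromatin protein HMGN1 and stimulates immune cells. The samples titled minP1_PDL1 (3 libraries, called the combination below) were set against those titled minP1 (3 libraries), which is 6 of the 12 libraries of the series, over all 19921 gene symbols of the count tables. All mice were wild-type BALB/c and carried Colon26, a mouse colon carcinoma line, placed under the skin of the right flank as 200000 cells. The minP1 group received 0.08 µg of the peptide into the peritoneum on day 9. The combination received the same peptide dose on day 9 and 200 µg of the anti-PD-L1 antibody, clone 10F.9G2, on days 4 and 8. The control group carried tumours and received neither agent, and the anti-PD-L1 group received only the antibody on the same days. Those 2 groups, of 3 libraries each, are described below only for the antibody's change without the peptide, but they enter the joint fit over all 12 libraries, which sets the genes tested and the estimate of spread. Tumours were taken on day 10, each library from 1 mouse. The treatment field of the combined samples names the antibody after a plus sign and no peptide, so every value of the combination rests on the sample titles. The labels used here give no ages.

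PD-L1 is a surface protein of tumour and myeloid cells that binds PD-1 on T cells and dampens their activity, and antibodies that block it are used as checkpoint inhibitors. HMGN1 released from cells acts on antigen-presenting cells through the receptor TLR4, which drives NF-kB and interferon programmes. In transplanted tumours, the cells that carry PD-L1 include macrophages, monocytes and neutrophils, which can secrete matrix-degrading enzymes, chemokines and enzymes that consume arginine.

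Tumours were digested and depleted of tumour cells and dead cells on a Percoll layer before polyadenylated RNA was amplified, so the libraries sample what remained after that step. Expression was read as tags of transcript 5′ ends, and levels are given as CPM, counts scaled to 1000000 of the library's normalized total. Totals were 276203, 311945 and 322613 counts in minP1 and 133917, 196109 and 176590 in the combination. Numbers of counts given below for genes or lists are raw sums over a group's 3 libraries, not scaled for these totals. At an equal depth of 133917 counts, 10465 to 11016 genes were detected in minP1 and 9811 to 10448 in the combination, and these ranges did not overlap (exact permutation test, two-sided p = 0.1, the smallest that 3 against 3 allows). Ribosomal RNA took 2.59% to 3.76% of minP1 counts and 0.889% to 1.22% of combination counts (exact p = 0.1). The noncoding RNA Bc1 and Lrrc17, whose counts were nearly equal in each library, together took 1.5% to 4.17% in minP1 and 2.49% to 6.32% in the combination (exact p = 0.2). MinP1 replicate 2 stood apart from the other two minP1 libraries, and combination replicate 3 from the other two of its group; with each left out, 1346 and 1040 genes passed the test described next, against 1088 with all libraries. The part of these library differences in the gene results was not tested. General epithelial genes were near 0 in both groups: the 12 in the tables held 19 counts in minP1 and 25 in the combination, and Krt8 had 0 and 1. Their summed levels were 7.32 to 32.9 CPM in minP1 and 25.6 to 95.5 CPM in the combination, which overlap. Whether Colon26 cells express these genes is not shown here, so the values do not tell how many tumour cells remained.

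Of the 5443 genes with enough counts to test, 1088 (20.0%) differed between the combination and minP1 at an adjusted p under 0.05, with 500 higher (9.19%) and 588 lower (10.8%) in the combination (edgeR's quasi-likelihood test, Benjamini-Hochberg adjustment). Differences below are log2 fold changes, combination minus minP1, with their standard error. The median was 1.30 among the higher genes and -1.61 among the lower ones, and -0.09 over all genes tested. More than 4-fold differences numbered 63 higher and 187 lower. In 467 of the 500 higher and 563 of the 588 lower genes, the 3 libraries of the combination did not overlap with those of minP1. Over all 5443 genes, 2039 (37.5%) had groups that did not overlap, 16.6% above and 20.9% below. Without minP1 replicate 1 or 3, 690 and 600 genes passed, and without combination replicate 1 or 2, 615 and 700, and 0 of the 1088 passed in the opposite direction under any alternative. In bulk samples like these, fewer cells of a type and less RNA per cell cannot be told apart, and counts over tested list members are descriptions, since a gene could enter through the group in which it is high. Each list count below is to be read beside the shares over all genes, 9.19% higher and 10.8% lower.

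**Figure D1:**
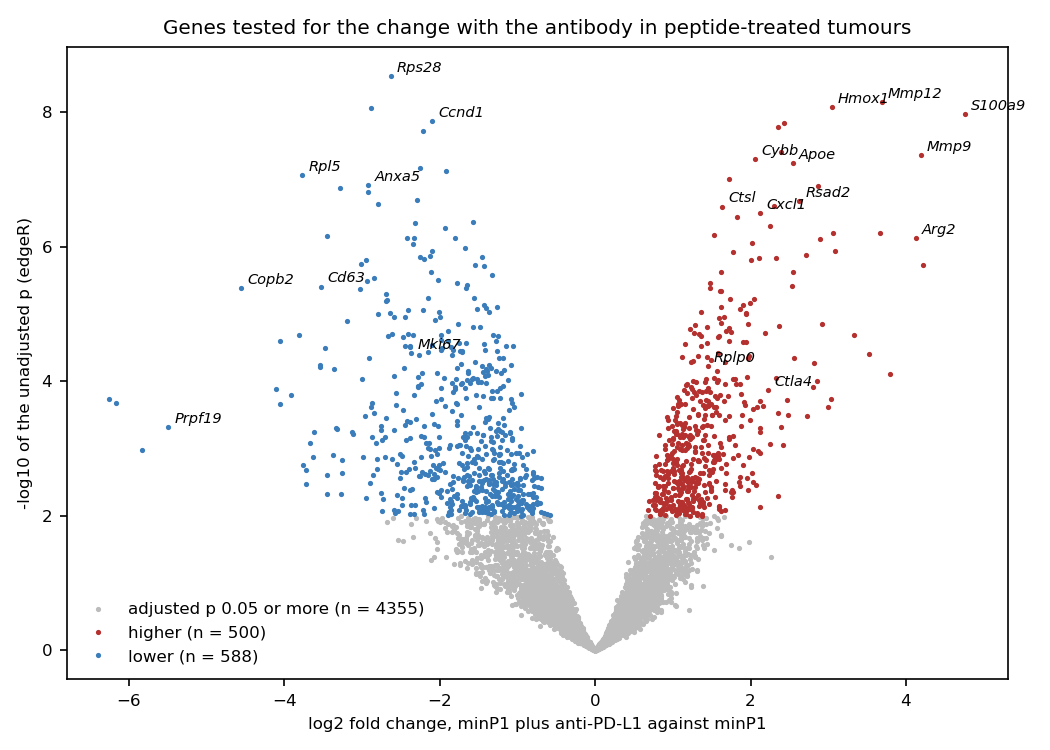
Each point is 1 of the 5443 genes tested. The horizontal axis is the log2 fold change, combination minus minP1, the vertical axis is -log10 of edgeR's unadjusted p, and colours mark the 500 higher (red) and 588 lower (blue) genes with an adjusted p under 0.05. The lower genes spread farther from 0, with 187 beyond 4-fold against 63 of the higher genes.

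The largest rises included genes that neutrophils and macrophages express. S100a9 (chr3:90692632-90695721, minus strand), an alarmin subunit abundant in neutrophils and inflammatory monocytes, was at 7.53, 7.32 and 3.29 CPM in the 3 minP1 libraries and 188, 155 and 181 in the combination. It had the largest log2 fold change of the 500 higher genes (4.76 ± 0.56, adjusted p = 1.11e-05). Mmp9, a gelatinase of neutrophil granules, was at 11.3, 11 and 3.29 CPM in minP1 and 230.5, 143 and 118 in the combination. Every combination library was far above every minP1 library for both genes (4.19 ± 0.54, adjusted p = 2.13e-05 for Mmp9). Hdc, which makes histamine, went from 15.1, 11 and 9.88 to 76.8, 95.5 and 135 CPM (3.08 ± 0.48). Of 7 neutrophil genes tested, these 3 rose and 0 fell (edgeR), with a median of 1.30 against -0.09 over all genes. The other 4 did not pass: Il1r2, a decoy receptor for IL-1, was at 1.30 (adjusted p = 0.0969), and Cxcr2, the receptor by which neutrophils follow CXC chemokines, lay below minP1 in all 3 combination libraries (-0.61, adjusted p = 0.113). S100a8, the usual partner of S100a9, had 3 and 2 counts in minP1 and the combination and was not tested. Ly6g, a defining neutrophil surface marker, had 1 and 0. With a stricter filter on low counts only 1 of the 3 was tested and passed.

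Cd24a, a surface glycoprotein of granulocytes and other immature cells, was at 7.53, 3.66 and 3.29 CPM in minP1 and 162, 89.5 and 50.8 in the combination (4.22 ± 0.68, adjusted p = 0.000173). Arg2, a mitochondrial arginase, went from 3.76, 7.32 and 9.88 to 213, 89.5 and 107 CPM (4.13 ± 0.63, adjusted p = 0.000102). For both genes the lowest combination library was several times the highest minP1 library. The better known myeloid arginase Arg1 did not pass (0.63 ± 0.30, adjusted p = 0.132), with levels of 151, 168 and 105 CPM in minP1 and 256, 149 and 254 in the combination that overlapped. Of 12 arginine and polyamine genes tested, 2 rose, Arg2 and Azin1, an activator of polyamine synthesis (1.0 ± 0.23), and 1 fell. The shares over all genes tested were 9.19% higher and 10.8% lower. The call of Azin1 was lost when the number of genes detected entered as a covariate (0.87, adjusted p = 0.0672). This covariate itself separates the groups, and with it 282 genes passed over all.

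**Figure D2:**
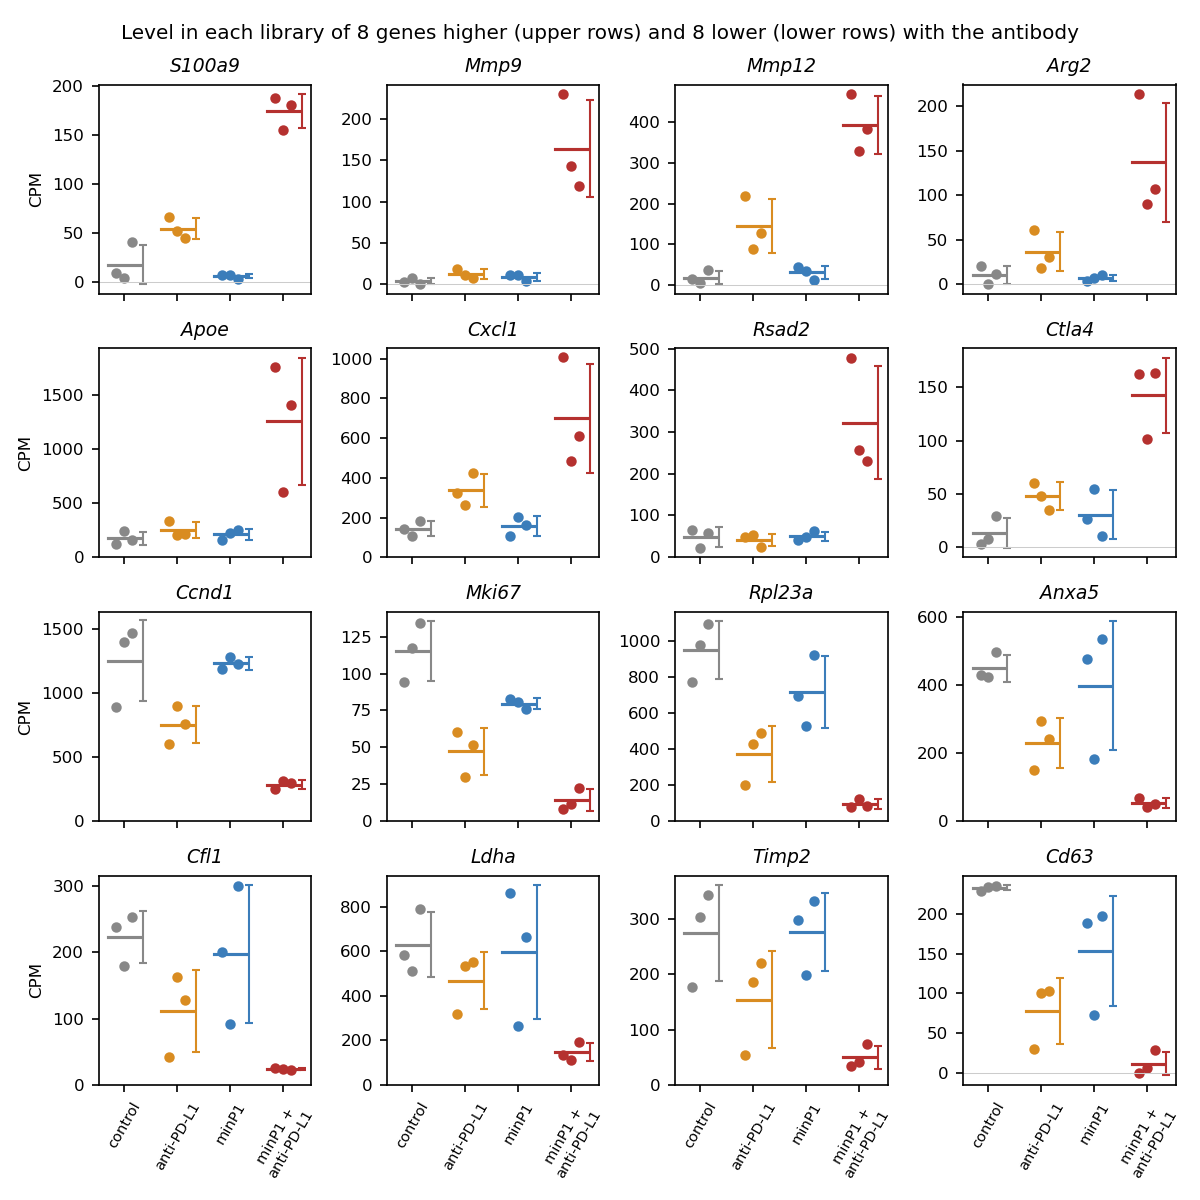
Levels in CPM, on linear axes, of 16 genes in the 4 groups. Dots are the 3 libraries of a group, the bar is their mean and the whisker their standard deviation. S100a9, Mmp9, Mmp12, Arg2, Apoe, Cxcl1, Rsad2 and Ctla4 lie higher in the combination than in minP1, and Ccnd1, Mki67, Rpl23a, Anxa5, Cfl1, Ldha, Timp2 and Cd63 lower, with no overlap between those 2 groups for any of the 16.

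Of 14 macrophage genes tested, 5 rose and 2 fell. Apoe (chr7:19696109-19699188, minus strand), a lipid carrier of macrophages, was at 158, 231 and 254 CPM in minP1 and 1758, 609 and 1405 in the combination. Every combination library lay far above the highest minP1 library, and replicate 2 was the lowest of the 3 (2.54 ± 0.33, adjusted p = 2.37e-05). Mrc1, the mannose receptor CD206, went from 135, 121 and 75.7 to 632, 376 and 349.8 CPM (2.02 ± 0.31), and Ms4a7, a tetraspan protein of tissue macrophages, from 22.6, 47.6 and 69.2 to 239, 203 and 237 (2.25 ± 0.33). C1qc, a subunit of complement C1q, was at 1.05 ± 0.27. Its call was lost with the genes-detected covariate (adjusted p = 0.121) and without combination replicate 1 (0.80, adjusted p = 0.0657). C1qa and C1qb, the partners of C1qc, did not pass (0.67 and -0.49). The tetraspanin Cd63, which marks late endosomes, fell from 188, 73.2 and 198 to 0, 5.97 and 28.2 CPM (-3.53 ± 0.60, adjusted p = 0.000294). Spp1, or osteopontin, also passed as lower (-0.81 ± 0.26, adjusted p = 0.0322), but in 6 of 17 alternatives it did not, among them without minP1 replicate 1 (-0.77), minP1 replicate 3 (-0.59), combination replicate 1 (-0.65) and combination replicate 2 (-0.73). The defining macrophage genes Csf1r and Adgre1 had too few counts to test, 8 and 7 for Csf1r and 17 and 23 for Adgre1, and so had Cd68, with 4 and 1. Summed over the list, macrophage genes held 7203 to 11618 CPM in the minP1 libraries and 6875 to 9117 CPM in the combination, ranges that overlap. The neutrophil list held 305 to 377 CPM in the minP1 libraries and 728 to 896 CPM in the combination. Most of that rise lay in the called genes S100a9, Mmp9 and Hdc, so the sum is not separate from those calls.

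Receptors for uptake and pathogen sensing rose as well. Clec7a, or dectin-1, which binds beta-glucans, was at 64.0, 103 and 75.7 CPM in minP1 and 649, 328 and 248 in the combination (2.30 ± 0.33, adjusted p = 5.26e-05). The inhibitory receptor Cd300a went from 18.8, 11 and 3.29 to 102, 65.6 and 79.0 CPM (2.86 ± 0.62). Fcgr4, an activating receptor for IgG, was at 67.7, 73.2 and 92.2 CPM in minP1 and 350, 334 and 203 in the combination, with every combination library above every minP1 library (1.90 ± 0.34, adjusted p = 0.000455). The scavenger receptor Cd36 rose by 1.97 on the log2 scale, a call lost with the genes-detected covariate (1.68, adjusted p = 0.0729). Of 8 uptake receptors tested 4 rose and 0 fell, and of 7 C-type lectin and CD300 receptors 4 rose and 0 fell, with Clec7a in both lists. The median was 1.19 for the uptake receptors and 1.55 for the lectins. Without combination replicate 1, 2 of the 7 lectin and CD300 genes passed. Of 5 Fc receptor genes, only Fcgr4 passed, and the common chain Fcer1g was at 0.80 ± 0.47 (adjusted p = 0.227).

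Cybb, the membrane subunit of the phagocyte NADPH oxidase, rose with these receptors. Its levels were 94.1, 106 and 125 CPM in minP1 and 572, 364 and 440.1 in the combination (2.06 ± 0.27, adjusted p = 2.25e-05). Dendritic cell genes were less uniform. Of 6 tested, 2 rose and 0 fell, and 4 of the 6 differences were positive, with a median of 0.85. Bst2, or tetherin, which marks plasmacytoid dendritic cells and also responds to interferon, rose from 692, 739.7 and 823 to 1989, 1808 and 1253 CPM (1.16 ± 0.23). The lectin Clec10a rose by 3.0 (adjusted p = 0.004), from 11.3, 18.3 and 6.59 CPM to 205, 53.7 and 56.4, with combination replicate 1 standing above the other two. Without that library its adjusted p was 0.078 (2.22), and with the genes-detected covariate 0.308 (1.69). Irf8, needed for the dendritic cells that present to CD8 T cells, was at -0.41 ± 0.60 (adjusted p = 0.658). Of 12 inflammatory monocyte genes 2 rose and 1 fell, beside 9.19% higher and 10.8% lower over all genes tested. Plac8 was at 3.76, 29.3 and 6.59 CPM in minP1 and 128, 101 and 62.1 in the combination (2.81 ± 0.58), a call lost with the genes-detected covariate (1.74, adjusted p = 0.162). The defining monocyte genes Ly6c2 and Ccr2 did not pass (0.59 and 0.16).

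Chemokines that attract neutrophils and monocytes were among the higher genes. Cxcl1 (chr5:90891241-90893115, plus strand), a ligand of CXCR2, was at 109, 205 and 161 CPM in minP1 and 1007, 483 and 609 in the combination. The lowest combination library lay well above the highest minP1 library (2.12 ± 0.31, adjusted p = 6.36e-05). Cxcl5, another CXCR2 ligand, went from 11.3, 7.32 and 6.59 to 162, 47.7 and 102 CPM (3.52 ± 0.70), whereas Cxcl2, of the same group, was at -0.13 ± 0.40 (adjusted p = 0.844). Ccl4, a CC chemokine, rose by 1.94, a call lost with the genes-detected covariate (1.42, adjusted p = 0.0668). Of 14 chemokine ligands tested 7 rose and 0 fell, with a median of 0.95. The other rises were in the monocyte attractants Ccl2, Ccl6, Ccl7 and Ccl9 and lay between 1.07 and 1.54. The count was 3 without minP1 replicate 1 or combination replicate 1, and 2 with the genes-detected covariate. Cxcl10, which attracts T cells, did not pass (0.19 ± 0.35, adjusted p = 0.728), and Cxcl9, another such ligand, had 17 and 4 counts and was not tested. Among receptors, Ackr3, which scavenges CXCL12, rose by 1.15 (adjusted p = 0.00279; 0.0537 with the genes-detected covariate).

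The promoter of Cxcl1 is shown because the gene rose strongly and its NF-kB site is well known. The stretch is chr5:90891145-90891224, plus strand, from RefSeq on GRCm38.p6, with 2 overlapping matches to the NF-kB motif, 1 on each strand, in capitals.
Cxcl1: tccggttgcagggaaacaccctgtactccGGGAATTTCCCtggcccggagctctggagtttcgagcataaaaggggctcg
A match to this motif on either strand was found in 3.75% of the 27025 RefSeq promoter windows, each the 250 bases before a start. A match is a description of the letters and says nothing about binding in these tumours.

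The NF-kB and TNF genes themselves moved both ways. Ptx3, a soluble pattern recognition protein induced by TNF and IL-1, was at 15.1, 22 and 32.9 CPM in minP1 and 580.5, 161 and 209 in the combination (3.67 ± 0.55, adjusted p = 9.98e-05). Tnf went from 26.3, 18.3 and 3.29 to 119.5, 47.7 and 67.7 CPM (2.24 ± 0.59, adjusted p = 0.00966). The Tnf call rested on 13 and 34 counts and was lost without minP1 replicate 3 (adjusted p = 0.0565), without combination replicate 1 (0.079) and with the genes-detected covariate (0.207). Ptgs2, or cyclooxygenase-2, rose by 1.07, from 414, 538 and 405 to 930.5, 1026 and 891 CPM (adjusted p = 0.127 with the genes-detected covariate). Il1rn, the IL-1 receptor antagonist, rose by 2.03, and its adjusted p was 0.127 with the same covariate. Il1b did not pass (0.41 ± 0.55, adjusted p = 0.625). Nfkb2, the precursor of the p52 subunit, had 35 and 2 counts in minP1 and the combination, 9.6 times more in minP1 per scaled count (95% interval 2.47 to 82.34). The inhibitor Nfkbia passed as lower by -0.74, a call lost in 7 of 17 alternatives, 5 of them with 1 library left out (-0.53 to -0.84). Of the 16 genes tested in this group 6 rose and 2 fell, with a median of 0.20. Of 8 Toll-like receptor pathway genes 1 rose, Tollip, which restrains receptor signalling (94.1, 109.8 and 132 CPM to 359, 298 and 265, 1.44 ± 0.28; adjusted p = 0.0615 with the genes-detected covariate). Myd88 and Cd14 lay above minP1 in all 3 combination libraries without passing (0.59 and 0.95), and Tlr4 had 10 and 5 counts.

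Interferon-responsive genes rose only in part. Rsad2 (chr12:26442746-26456452, minus strand), or viperin, an antiviral enzyme, was at 41.4, 47.6 and 62.6 CPM in minP1 and 478, 257 and 231 in the combination (2.62 ± 0.37, adjusted p = 4.92e-05). Rtp4, another type I interferon target, went from 30.1, 47.6 and 46.1 to 128, 131 and 113 CPM (1.57 ± 0.34), with every combination library above every minP1 library. Ifi44 rose by 1.29, and without minP1 replicate 1 its adjusted p was 0.0509. The other 10 of 13 type I interferon genes tested did not pass, and the list's median was 0.00. Among them Ifit1 was at 0.72 ± 0.54 and Isg15 at -0.44 ± 0.55. The 19 type I interferon genes with too few counts to test held 204 counts in minP1 and 109 in the combination. These are raw counts, and every combination library had a lower total than every minP1 library. Summed over all 32 genes of the list, the libraries held 922 to 1232 CPM in minP1 and 1546 to 1639 CPM in the combination. These ranges did not overlap, and the sums include the 3 genes that rose.

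Of 14 interferon gamma response genes tested 0 passed in edgeR, DESeq2 or limma voom, and 1 had an unadjusted p under 0.05. Their median was 0.12. Irf1, a first-line target of interferon gamma, was at 267, 278 and 336 CPM in minP1 and 273, 322 and 463 in the combination, and these overlapped (0.28 ± 0.32, adjusted p = 0.569). Gbp4 lay above minP1 in all 3 combination libraries (0.81 ± 0.43, adjusted p = 0.179) and passed only with the Bc1 level as a covariate (1.68, adjusted p = 0.00697). Iigp1 lay below in all 3 (-1.34 ± 0.59, adjusted p = 0.109) and passed with no filter on low counts (-1.41, adjusted p = 0.0115), in the fit of the 6 samples alone (0.03), with the replicate block (0.0317) and after thinning to equal depth (0.047). Ifng itself had 0 counts in both groups. The receptor gene Ifngr1, in contrast, rose from 48.9, 87.9 and 75.7 to 205, 161 and 209 CPM (1.42 ± 0.32, adjusted p = 0.00349), and so did Stat3, which relays IL-6 and IL-10 signals, from 154, 114 and 115 to 307, 322 and 349.8 (1.36 ± 0.27).

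The class I antigen presentation genes split. H2-K1, a class I heavy chain, was at 3364, 3512 and 2648 CPM in minP1 and 7691, 6738 and 5151 in the combination (1.04 ± 0.25). B2m (chr2:122147686-122153083, plus strand), the shared light chain, was at 2232, 2007 and 2282 CPM in minP1 and 5617, 4094 and 3842 in the combination (1.05 ± 0.26), and Calr, a chaperone of class I assembly, at 628, 1227 and 731 and 1835, 2011 and 1540.3 (1.06 ± 0.25). For these 3 genes every combination library was above every minP1 library, and all 3 calls were lost with the genes-detected covariate (adjusted p = 0.138, 0.0858 and 0.155). Pdia3, a disulfide isomerase of the same loading complex, moved the other way, from 704, 633 and 1103 to 205, 251 and 406 CPM (-1.48 ± 0.28, adjusted p = 0.00072). Tap2, a subunit of the peptide transporter, and the nonclassical H2-T23 also passed as lower (-1.02 and -1.41), each lost in 6 of 17 alternatives. Without minP1 replicate 3, combination replicate 1 or combination replicate 2, the lower count of the list was 1, 2 and 1. The partner subunit Tap1 was at 0.71 ± 0.32 (adjusted p = 0.117) and H2-D1, another heavy chain, at 0.17 ± 0.27. In all 3 of 19 MHC class I presentation genes rose and 4 fell, with a median of 0.17. The heavy chain genes resemble each other, so reads may be split between them. Of 8 class II presentation genes only Lgmn, an endosomal protease, passed: it went from 275, 436 and 445 to 1238, 913 and 1095 CPM (1.48 ± 0.25). The class II chains H2-Aa and H2-Ab1 and the invariant chain Cd74 did not (0.35, 0.46 and 0.61).

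The promoters of Rsad2 and B2m are shown because both genes rose and both hold the core of the interferon-stimulated response element (GAAA, any 2 bases, GAAA), searched on both strands. The windows are chr12:26456513-26456592, minus strand, for Rsad2 and chr2:122147527-122147606, plus strand, for B2m (RefSeq, GRCm38.p6). Capitals mark that core (on the opposite strand in Rsad2), an AP-1 match (TGANTCA) in Rsad2 and an NF-kB match in B2m.
Rsad2: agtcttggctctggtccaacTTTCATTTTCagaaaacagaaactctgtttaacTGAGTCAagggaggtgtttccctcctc
B2m: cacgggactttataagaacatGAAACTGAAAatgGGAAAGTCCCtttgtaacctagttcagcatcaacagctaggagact
Over the 27025 promoter windows, 3.04% held the response element core and 6.87% the AP-1 letters.

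T cell genes were scarce in both groups. The checkpoint receptor Ctla4, carried by activated and regulatory T cells, was at 26.3, 54.9 and 9.88 CPM in minP1 and 162, 101 and 164 in the combination. The difference was called (2.22 ± 0.49, adjusted p = 0.00279), with the lowest combination library above the highest minP1 library, and the call was lost with the genes-detected covariate (2.03, adjusted p = 0.0637). Tnfrsf9, the costimulatory receptor 4-1BB, went from 45.2, 25.6 and 29.6 to 93.9, 65.6 and 79.0 CPM (1.22 ± 0.42, adjusted p = 0.0424). That call failed in 9 alternatives, among them leaving out minP1 replicate 2 (1.11, adjusted p = 0.0865), minP1 replicate 3 (1.17, 0.118), combination replicate 1 (1.16, 0.115), combination replicate 2 (1.4, 0.0566) and combination replicate 3 (1.22). Of the T cell list only Thy1, which fibroblasts also express, had enough counts (0.71 ± 0.35, adjusted p = 0.154). The 15 T cell genes in the tables summed to 102 to 161 CPM in the minP1 libraries and 237 to 324 CPM in the combination, ranges that did not overlap. The 14 members with too few counts to test held 52 raw counts in minP1 and 74 in the combination. The rest of each sum was Thy1, which did not pass, so the sums do not show a change of T cells. The cytotoxic list gave 128 to 207 CPM in the minP1 libraries and 85.4 to 164 CPM in the combination. Granzyme A, Gzma, lay below minP1 in all 3 combination libraries without passing (-0.56 ± 0.45, adjusted p = 0.391). Gzmb had 11 and 1 counts, a minP1 to combination ratio of 6.03 (95% interval 0.877 to 259.6). Cd8a had 2 and 1 counts, Cd3e 2 and 6, Cd4 2 and 6, Foxp3 2 and 0, Pdcd1 (PD-1) 1 and 0 and Cd274 (PD-L1) 5 and 9, so none of them was tested.

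Several enzymes that degrade the extracellular matrix rose, and an inhibitor of them fell. Mmp12 (chr9:7344381-7369499, plus strand), the macrophage elastase, was at 45.2, 33.0 and 13.2 CPM in minP1 and 469.5, 328 and 384 in the combination (3.69 ± 0.43, adjusted p = 1.11e-05). Mmp3, or stromelysin, went from 15.1, 33.0 and 23.1 to 222, 101 and 67.7 CPM (2.37 ± 0.44). The collagenase Mmp13 rose by 2.03, a call lost without combination replicate 3 (1.56, adjusted p = 0.102). With Mmp9, this made 4 of 9 tested metalloproteinase and inhibitor genes higher. Timp2, an inhibitor of these enzymes, fell from 297, 198 and 333 to 34.1, 41.8 and 73.3 CPM (-2.42 ± 0.43, adjusted p = 0.000503), and every combination library was far below every minP1 library. Timp1 did not pass (-0.10 ± 0.25, adjusted p = 0.8), nor did Mmp14, a membrane-bound collagenase (-0.53 ± 0.31). Timp3 passed as lower (-0.93), a call lost in 9 of 17 alternatives, among them without minP1 replicate 3 (-0.48) and without each combination library (-0.77 to -1.08).

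The Mmp12 promoter, chr9:7344277-7344356 on the plus strand (RefSeq, GRCm38.p6, 1 of 2 promoters listed), is shown because this macrophage gene had one of the largest rises and holds a match to the motif of PU.1, the myeloid transcription factor.
Mmp12: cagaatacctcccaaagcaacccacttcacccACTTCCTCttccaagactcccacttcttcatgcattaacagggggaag
Capitals mark GAGGAAGT as read on the opposite strand, letters found on either strand in 2.44% of the 27025 promoter windows.

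Matrix proteins did not follow the enzymes. Of 25 collagen and matrix genes tested 3 rose and 3 fell, with a median of 0.18. Col1a1 was at 0.44 ± 0.31 (adjusted p = 0.316) and Col1a2 at -0.58 ± 0.21 (adjusted p = 0.056). Sparc, a collagen-binding glycoprotein, fell from 259.6, 242 and 385 to 76.8, 71.6 and 124 CPM (-1.68 ± 0.37; adjusted p = 0.102 with the genes-detected covariate). Among coagulation and plasmin genes, Plaur, the urokinase receptor, rose from 275, 161 and 194 to 623, 364 and 525 CPM (1.25 ± 0.27). Serpinb2, an inhibitor of urokinase, rose from 7.53, 3.66 and 3.29 to 137, 47.7 and 45.1 CPM (3.80 ± 0.80), with an adjusted p of 0.0659 under the genes-detected covariate. Of 8 fibroblast genes tested 1 rose and 2 fell, with a median of -0.31. Summed over all 17 genes of the list, the libraries held 6129.8 to 6929 CPM in minP1 and 2906 to 3098 CPM in the combination, ranges that did not overlap. S100a4 and Vim, the 2 genes called lower, held most of the minP1 sum, so the sum mainly follows these 2 genes. S100a4, also made by myeloid and tumour cells, fell from 3315, 3973 and 3559.8 to 1042, 1373 and 1518 CPM (-1.46 ± 0.23). The intermediate filament gene Vim fell from 2141, 1069 and 2127 to 359, 471 and 722 CPM (-1.77 ± 0.33; adjusted p = 0.0628 with the genes-detected covariate). Pi16, the member that rose, was at 11.3, 43.9 and 26.3 CPM in minP1 and 205, 41.8 and 39.5 in the combination, groups that overlap (1.67 ± 0.58, adjusted p = 0.0438). Its call was lost in 7 of 14 alternatives, among them without combination replicate 1 (0.62, adjusted p = 0.543), minP1 replicate 1 (1.32, 0.148) or minP1 replicate 3 (1.68, 0.0981). Pdgfra, a more specific fibroblast gene, did not pass (-1.43 ± 0.61, adjusted p = 0.0969).

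Lysosomal genes rose in part. Ctsl, a lysosomal cysteine protease, was at 1569, 1644 and 1403 CPM in minP1 and 5771, 4816 and 3701 in the combination (1.63 ± 0.23, adjusted p = 5.26e-05). Atp6v1b2, a subunit of the proton pump that acidifies lysosomes, went from 117, 194 and 122 to 657, 394 and 446 CPM (1.78 ± 0.28), and the membrane protein Lamp1 rose by 1.12 (adjusted p = 0.0524 with the genes-detected covariate). Of 33 lysosomal hydrolases and proton pump genes tested 10 rose and 0 fell, with a median of 0.53. The count ranged from 4 to 11 under the alternatives, with 5 without minP1 replicate 1 or 3, 5 with no filter on low counts, 6 without combination replicate 1 and 4 with the genes-detected covariate. Fabp5, a fatty acid carrier, rose from 11.3, 7.32 and 19.8 to 111, 95.5 and 129.8 CPM (3.06 ± 0.46, adjusted p = 9.98e-05). Abca1, which exports cholesterol, rose by 1.83, while Hmgcs1, an early enzyme of cholesterol synthesis, fell by 2.42. The Abca1 call was lost without minP1 replicate 3 (1.54, adjusted p = 0.0649) and without combination replicate 3 (1.56, 0.0779), and that of Hmgcs1 with limma voom (-2.04, 0.0614).

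Haem, metal and stress genes included some of the clearest rises. Hmox1, or haem oxygenase 1, was at 45.2, 22 and 42.8 CPM in minP1 and 316, 239 and 367 in the combination (3.05 ± 0.36, adjusted p = 1.11e-05). Mt1, a metallothionein, was at 6837, 5181 and 5401 CPM in minP1 and 12660, 9859 and 12859 in the combination (1.02 ± 0.25), and Slc39a14, a zinc and iron importer, went from 188, 260.0 and 171 to 691, 704 and 491 (1.60 ± 0.27). These 3 were the called genes among 9 tested in the list of metal handling, and Mt2, the close relative of Mt1, did not pass (-0.42 ± 0.42, adjusted p = 0.492). Fas, the death receptor, rose from 26.3, 40.3 and 29.6 to 162, 185 and 141 CPM (2.33 ± 0.37, adjusted p = 0.000151). Of 18 apoptosis genes 6 rose and 1 fell, with a count of 1 higher under the genes-detected covariate. Cd44, an adhesion receptor for hyaluronan, rose from 704, 725 and 649 to 1502, 1707 and 1631 CPM (1.22 ± 0.23, adjusted p = 0.000743).

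On the lower side, cytosolic ribosomal protein genes gave the highest count of any list. Of 86 tested, 47 fell and 6 rose, with a median of -0.80. Their summed level did not separate the groups. Over all 88 genes of the list it was 1.84e+05 to 2.19e+05 CPM in the minP1 libraries. In the combination it was 1.56e+05 to 2.25e+05 CPM, and these ranges overlap. Rpl23a (chr11:78180932-78183584, minus strand), of the large subunit, was at 696, 527 and 925 CPM in minP1 and 76.8, 125 and 84.6 in the combination (-2.88 ± 0.34, adjusted p = 1.11e-05). Rps28, of the small subunit, went from 993, 798 and 1186 to 154, 137 and 186 CPM (-2.63 ± 0.29), and Rpl5, which also binds MDM2, from 959.6, 256 and 922 to 51.2, 35.8 and 67.7 (-3.77 ± 0.50). For each of these genes no combination library reached the lowest minP1 library. The family did not move as 1 unit: Rplp0, a stalk protein, rose from 3921, 5888 and 3395 to 14811, 12711 and 8548 CPM (1.45 ± 0.30), and Rps2, Rpl32 and Rps27a rose by 0.77 to 1.0. Under the alternatives the lower count ranged from 29 to 50 and the higher count from 0 to 10. With the genes-detected covariate 29 passed as lower and 0 as higher, and without minP1 replicates 1 and 3 the higher calls numbered 2 and 1. Without minP1 replicate 2 or combination replicate 3 there were 10 higher calls. These genes have many near-identical pseudogene copies, and how such reads were counted is not given in the sources used here, so single members are uncertain.

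**Figure D3:**
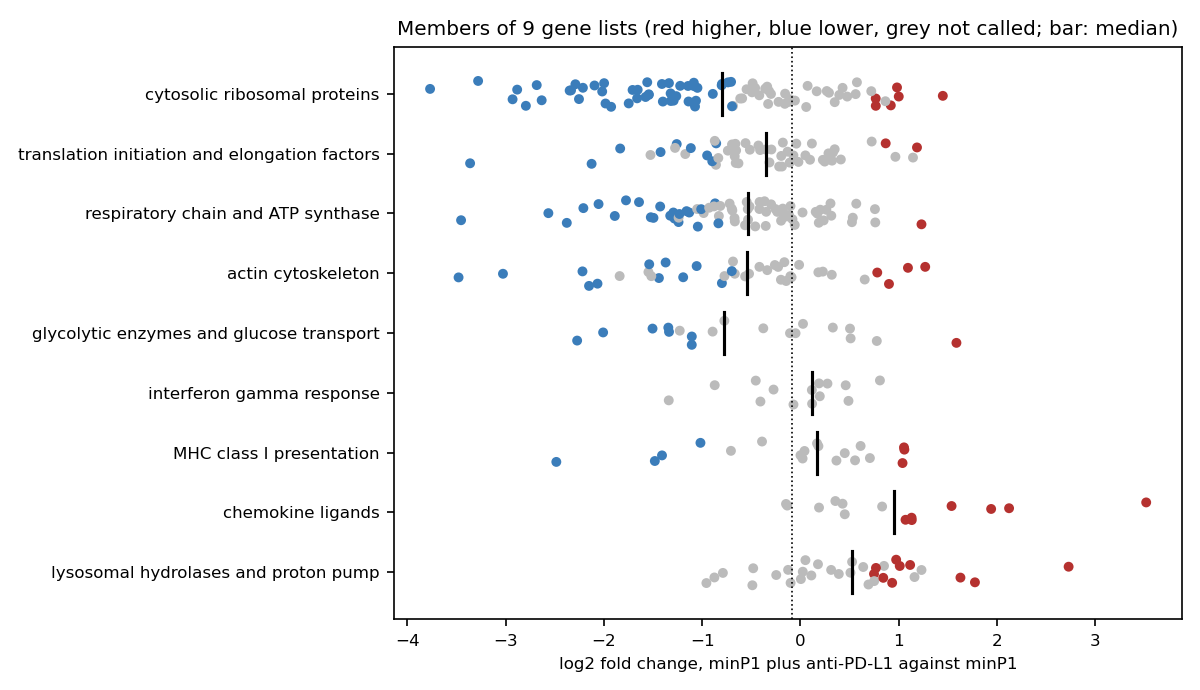
Log2 fold changes, combination minus minP1, of the tested members of 9 gene lists. Each dot is 1 gene (red higher, blue lower, grey not called), the bar is the list's median and the dotted line is the median of all genes tested, -0.09. The chemokine ligands lie mostly above 0 with a median of 0.95, and the ribosomal proteins, with a median of -0.80, hold members on both sides.

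Among translation factors most genes did not pass. Of 53 translation initiation and elongation factors tested, 9 fell and 2 rose, with a median of -0.35, beside 10.8% lower and 9.19% higher over all genes tested. Eef1g, a subunit of the elongation factor that recharges eEF1A, fell from 335, 179 and 339 to 59.8, 83.5 and 50.8 CPM (-2.13 ± 0.34, adjusted p = 0.000149), and Eef1a1 itself from 3518, 2955 and 3935 to 1289, 1689 and 1365 (-1.26 ± 0.25; adjusted p = 0.0619 with the genes-detected covariate). Eif4a2, an RNA helicase of initiation, went the other way, from 342, 198 and 342 to 683, 585 and 745 CPM (1.19 ± 0.26). The lower count was 5 without minP1 replicate 3 and 2 with the genes-detected covariate.

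Many genes of oxidative phosphorylation fell. Of 73 nuclear genes of the respiratory chain and ATP synthase tested 22 fell and 1 rose, with a median of -0.54. Summed over all 93 genes of the list, the libraries held 15090 to 16196 CPM in minP1 and 12972 to 15504 CPM in the combination, ranges that overlap. Atp5h, a peripheral stalk subunit of ATP synthase, went from 196, 84.2 and 165 to 25.6, 5.97 and 11.3 CPM (-3.45 ± 0.52, adjusted p = 0.000102). Ndufa5, of complex I, fell from 166, 146 and 244 to 51.2, 47.7 and 50.8 CPM (-1.89 ± 0.36), and Cox6b1, of complex IV, from 271, 234 and 260.2 to 85.4, 95.5 and 45.1 (-1.78 ± 0.30). The 1 gene that rose was Atp5a1, the alpha subunit of the ATP synthase, from 899, 1186 and 751 to 2339, 2471 and 1856 CPM (1.23 ± 0.27; adjusted p = 0.132 with the genes-detected covariate). The lower count was 14 without minP1 replicate 1, 9 without minP1 replicate 3, 12 with the Bc1 covariate and 8 with the genes-detected covariate. Without combination replicates 1 and 2 it was 12 and 10.

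Mitochondrially encoded transcripts also split: of 13 tested 6 fell and 1 rose, although their summed share of counts did not separate the groups (exact p = 1). MT-Nd1, a core subunit of complex I, fell from 241, 157 and 207 to 8.54, 35.8 and 28.2 CPM (-2.95 ± 0.47, adjusted p = 0.000155), and MT-Atp6, of ATP synthase, from 324, 183 and 309.6 to 51.2, 53.7 and 56.4 (-2.32 ± 0.34). MT-Co3, of complex IV, was at 1626, 4804 and 1528 CPM in minP1 and 8921, 9322 and 4068 in the combination (1.49 ± 0.37, adjusted p = 0.00645). Its groups overlapped, with minP1 replicate 2 above the lowest combination library, and the call was lost with the genes-detected covariate (0.60, adjusted p = 0.275).

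Genes of cell structure and motility were also among the lower ones. Of 38 actin cytoskeleton genes tested 12 fell and 4 rose, with a median of -0.54. Cfl1, or cofilin, which severs actin filaments, went from 199, 91.5 and 299.7 to 25.6, 23.9 and 22.6 CPM (-3.03 ± 0.52, adjusted p = 0.000307). Tmsb4x, which sequesters actin monomers, fell from 410.2, 315 and 929 to 111, 95.5 and 147 CPM (-2.22 ± 0.40), and Tpm4, a tropomyosin, from 120.4, 128 and 132 to 8.54, 35.8 and 39.5 (-2.07 ± 0.38). Tln1, which links integrins to actin, had 65 and 3 counts, a minP1 to combination ratio of 11.9 (95% interval 3.89 to 59.1). Gsn, or gelsolin, rose from 440.3, 626 and 491 to 1417, 1576 and 773 CPM (1.27 ± 0.28), lost with the Bc1 covariate (0.73, adjusted p = 0.074) and the genes-detected covariate (0.76, 0.153). The lower count was 5 without minP1 replicate 3, 6 without combination replicate 1 and 7 without combination replicate 2. Among S100 proteins and annexins, S100a9 rose while 5 of the 13 tested fell, or 3 without minP1 replicate 1, minP1 replicate 3 or combination replicate 1. Anxa5, which binds phosphatidylserine on dying cells, fell from 478, 183 and 537 to 68.3, 41.8 and 50.8 CPM (-2.92 ± 0.40, adjusted p = 3.54e-05). S100a6 passed as lower as well (-0.75 ± 0.23), a call lost without minP1 replicate 1 (adjusted p = 0.0519), minP1 replicate 3 (0.0846) or combination replicate 1 (0.133).

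Several glycolytic enzymes fell while a glucose transporter rose. Ldha, lactate dehydrogenase A, was at 862, 267 and 665 CPM in minP1 and 137, 113 and 192 in the combination (-2.01 ± 0.36, adjusted p = 0.000521), and minP1 replicate 2 was the lowest of its group. Aldoa, or aldolase, fell from 237, 69.6 and 168 to 25.6, 29.8 and 39.5 CPM (-2.27 ± 0.46) and Pgk1, phosphoglycerate kinase, from 1369.7, 871 and 1212 to 427, 501 and 666 (-1.11 ± 0.26). Slc2a1, the transporter GLUT1, rose from 86.5, 114 and 109 to 333, 269 and 333 CPM (1.59 ± 0.30, adjusted p = 0.000859). Of 19 glycolysis and glucose transport genes tested 7 fell and 1 rose, with a median of -0.77. With the genes-detected covariate only 1 passed as lower, and the calls of Aldoa and Pgk1 were at an adjusted p of 0.0552 and 0.0602. Hypoxia-induced genes outside glycolysis did not fall with them: 2 of 14 rose and 0 passed as lower, with Vegfa at -1.53 ± 0.56 (adjusted p = 0.054). Vegfa passed as lower in 5 alternatives, with no filter on low counts (adjusted p = 0.0189), in the 6 samples alone (0.0399), with the replicate block (0.0105), without minP1 replicate 2 (0.0191) and without combination replicate 3 (0.0346).

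Some proliferation genes fell. Ccnd1 (chr7:144929931-144939925, minus strand), cyclin D1, which drives entry into the cell cycle, was at 1185, 1282 and 1225 CPM in minP1 and 248, 310.3 and 299 in the combination. The libraries within each group lay close together and the groups were far apart (-2.10 ± 0.25, adjusted p = 1.11e-05). Mki67, the proliferation marker Ki-67, fell from 82.8, 80.6 and 75.7 to 8.54, 11.9 and 22.6 CPM (-2.36 ± 0.47), and Top2a, a topoisomerase of dividing cells, from 538, 670.1 and 563 to 196, 275 and 181 (-1.44 ± 0.28). Of 40 cell cycle and DNA replication genes tested 7 fell and 2 rose, beside 10.8% lower and 9.19% higher over all genes tested. Their median was -0.46, and without combination replicate 3 the lower count was 4. The genes that rose were Cenpa, the centromeric histone (1.29 ± 0.38), and Cdt1, which licenses replication origins (1.19 ± 0.36). Neither call held without minP1 replicate 1 (adjusted p = 0.0571 and 0.0962) or without minP1 replicate 3 (0.0934 and 0.0693), that of Cenpa was also lost without combination replicate 2 (1.03) and that of Cdt1 without combination replicate 1 or 3 (1.16 and 1.09), and the Cenpa difference was 0.09 with the genes-detected covariate. Among the chromatin HMG proteins, Hmgb2, also high in dividing cells, fell from 534, 696 and 586 to 222, 286 and 288 CPM (-1.18 ± 0.25). Hmgn1, the source of the peptide, passed as higher (0.74 ± 0.25, adjusted p = 0.0392), a call lost in 7 alternatives, among them without minP1 replicate 1 or 3 (0.74 and 0.65) and without combination replicate 1 or 2 (0.75 and 0.64).

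Chaperones, redox enzymes and early response genes held calls in both directions. Of 54 heat shock proteins and co-chaperones tested 10 fell and 4 rose, with a median of -0.35, beside 10.8% lower and 9.19% higher over all genes tested. Hsp90ab1, the constitutive cytosolic HSP90, fell from 4809, 6203 and 5463 to 2629, 3246 and 2641 CPM (-0.95 ± 0.21, adjusted p = 0.00303). The lower count was 6 without minP1 replicate 1, 4 without minP1 replicate 3 and 2 with the genes-detected covariate. Without combination replicates 1 and 2 it was 3 and 4. Of 18 antioxidant and redox genes tested 5 rose, Hmox1 among them, and 5 fell, with a median of -0.18. Txn1, thioredoxin, fell from 233, 267 and 372 to 51.2, 65.6 and 164 CPM (-1.58 ± 0.34) and Prdx2, a peroxiredoxin, from 414, 315 and 389 to 145, 95.5 and 197 (-1.34 ± 0.28), while Txnrd1, which reduces thioredoxin, rose by 1.29. The Txnrd1 call was lost without combination replicate 3 (0.99, adjusted p = 0.081). Of 23 immediate early transcription factor genes 4 fell and 1 rose, and without minP1 replicate 3 or a combination library the lower count ranged from 1 to 5. Egr1 fell from 1291, 739.7 and 1235 to 367, 429.7 and 581 CPM (-1.23 ± 0.25; adjusted p = 0.0533 with the genes-detected covariate). Jun also fell (-1.16 ± 0.30), lost without minP1 replicate 3 (adjusted p = 0.0818) and without combination replicate 1 (0.0777).

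**Figure D4:**
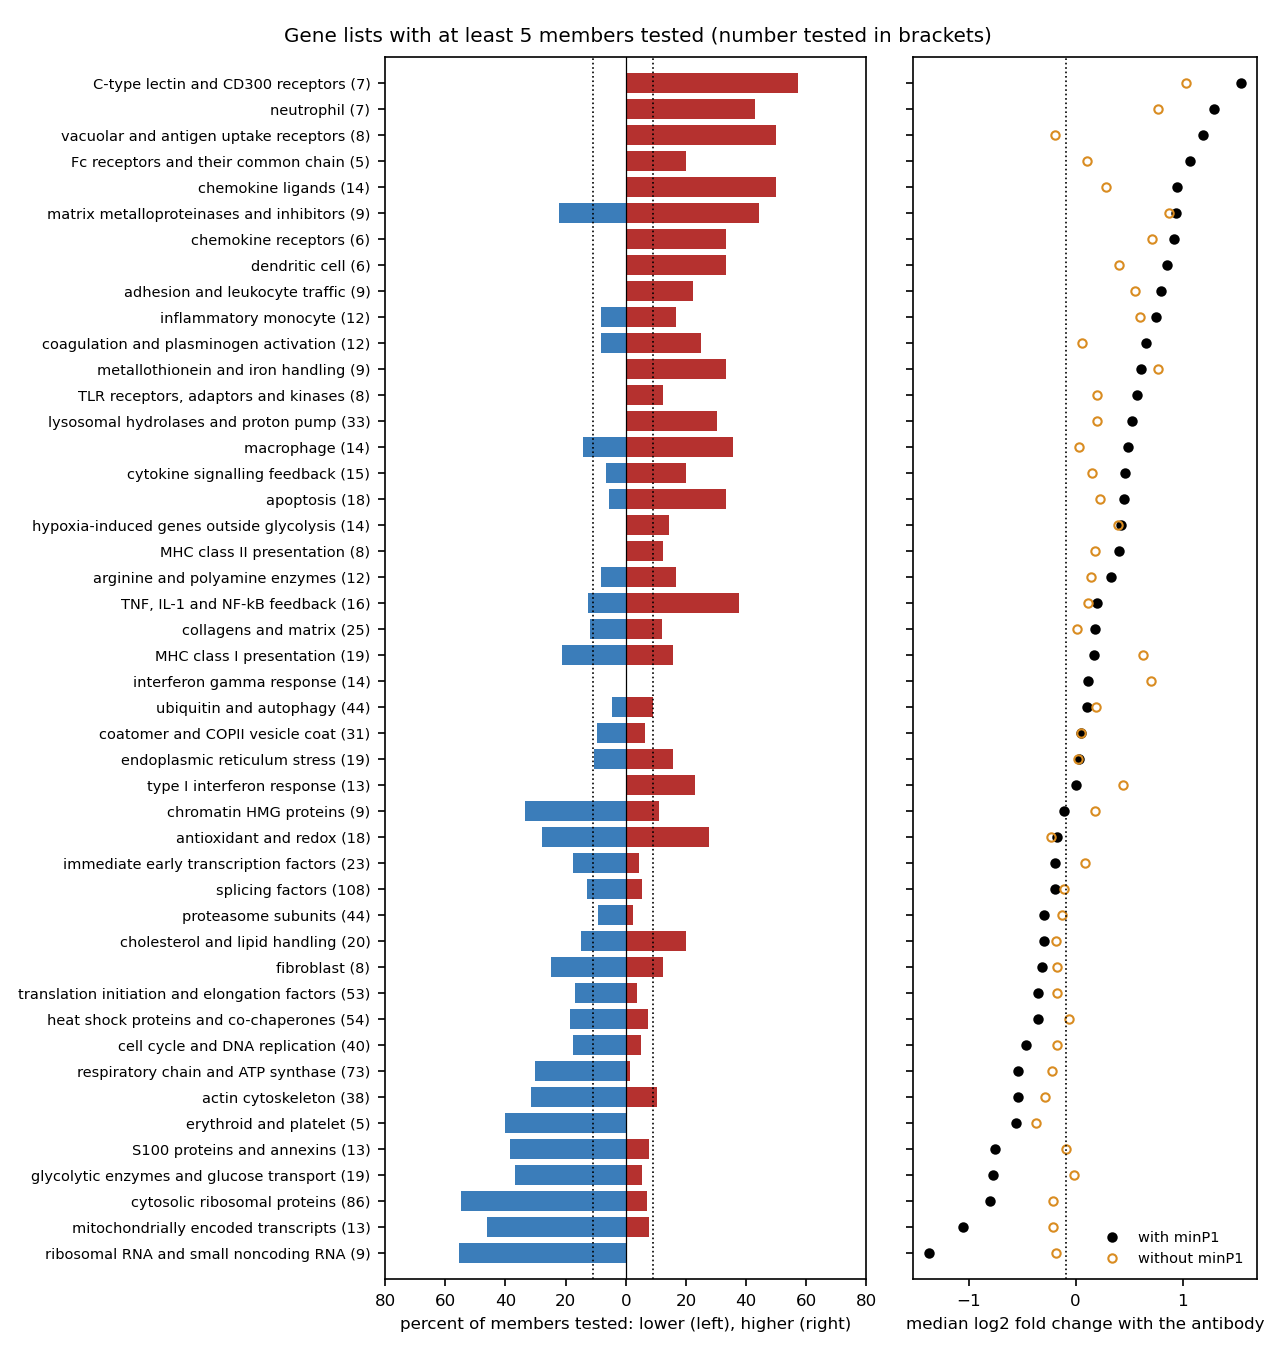
For each gene list with at least 5 tested members, the left panel gives the share of tested members that passed as higher (to the right) or lower (to the left) in the combination against minP1, with dotted lines at the shares over all genes, 9.19% and 10.8%. The right panel gives each list's median log2 fold change with the peptide (combination minus minP1, filled dots) and without it (anti-PD-L1 minus control, open dots), and its dotted line is the median of all genes tested with the peptide, -0.09. On the lower side the ribosomal proteins, with 47 of 86, stand far beyond the share over all genes.

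Several noncoding RNAs fell with the ribosomal proteins. Rn18s, annotated as 18S ribosomal RNA, was at 15801, 10608 and 15754 CPM in minP1 and 3338, 3789.5 and 4046 in the combination (-1.92 ± 0.25, adjusted p = 2.67e-05), and Rn28s1 fell by 1.24. Malat1, a nuclear long noncoding RNA, went from 9084, 4936 and 10755 to 1537, 1176 and 1811 CPM (-2.45 ± 0.48), and its adjusted p was 0.179 (-1.07) with the genes-detected covariate. Leaving the ribosomal, mitochondrial, Bc1 and Lrrc17 counts out of the tables gave 1076 called genes.

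The largest falls of single genes rested on few counts in the combination. Ccser2, Wnt10a, Tinagl1 and Prpf19 had 31, 29, 23 and 18 counts in minP1 and 0 in every combination library, so they were at least 5.67-fold, 5.3-fold, 4.2-fold and 3.29-fold lower when the combination's total is set to a floor of 3 counts. Prpf19 is a ubiquitin ligase of the spliceosome and Wnt10a a secreted Wnt ligand. The Tinagl1 call was lost without minP1 replicate 3 (adjusted p = 0.0637) and with the Bc1 and Lrrc17 or the genes-detected covariate (0.0564 and 0.0858), and that of Wnt10a with the genes-detected covariate (0.0537). The median of the lower genes, -1.61, is the same with these 4 genes at their bounds, which all lie below it. Copb2, a coat protein of Golgi vesicles, had 52 and 1 counts, a minP1 to combination ratio of 28.5 (95% interval 4.9 to 1148). Gpx8, a peroxidase of the endoplasmic reticulum, had 38 and 1 counts and a ratio of 20.8 (3.52 to 844.3). Selenof, a selenoprotein of the endoplasmic reticulum, went from 113, 69.6 and 194 to 0, 0 and 22.6 CPM (-3.81 ± 0.72, adjusted p = 0.000835). Within the transport coat genes Copa, a partner of Copb2, passed in the opposite direction (41.4, 36.6 and 46.1 CPM to 119.5, 113 and 118, 1.49 ± 0.34; adjusted p = 0.0775 with the genes-detected covariate).

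The genes that fell had shorter transcripts. The median transcript length, from the annotation of GRCm38.p6, was 1500 bases among the lower genes, 2008 among the higher genes and 2016 among all tested, with lengths known for 88.1%, 92.2% and 92.0% of them. With the genes in 4 equal bins of transcript length, 14.9% of the shortest bin and 8.15% of the longest passed as lower. Median GC content differed little, at 50.2%, 50.6% and 49.8%. These are descriptions across genes, which are not independent, and the part of transcript length in the results above was not tested.

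The same antibody without the peptide gave fewer calls. Between the anti-PD-L1 and control libraries, which share no library with the comparison above but were fitted jointly with it, 61 of 5443 genes passed (1.12%), 30 higher and 31 lower. The count moved with single libraries: leaving out control replicate 1, 2 or 3 gave 106, 1 or 59, while dropping anti-PD-L1 replicate 1, 2 or 3 gave 12, 6 or 20. Of the 30 higher genes, 23 (76.7%) were also higher in the combination against minP1, which is 4.6% of the 500. Of the 31 lower genes, 26 (83.9%) were also lower there, which is 4.42% of the 588. The shared higher genes included Mmp12, Cxcl1, Fcgr4, Slc2a1, Mt1, H2-K1, B2m, Calr and Ackr3, and the shared lower genes Mki67, Cd63, Rpl23a, Rpl4, Eef1g and Tmsb4x. Most genes called with the peptide had the same sign without it. Of the 500 higher genes 449 (89.8%) were positive, against 47.8% of all genes tested, with a median of 0.57. Of the 588 lower genes 553 (94.0%) were negative, against 52.2% of all, with a median of -0.57. Across the 5443 genes, which are not independent, Pearson's r between the 2 sets of log2 fold changes was 0.638. Library measures also lay in the same direction without the peptide. Bc1 and Lrrc17 took 1.36% to 2.34% of counts in control and 2.35% to 4.42% with the antibody alone, without overlap. Ribosomal RNA took 2.59% to 3.90% and 2.37% to 2.74%, and genes detected at equal depth numbered 10579 to 11611 and 9980 to 10634, both with overlap. Their part in the shared signs was not tested.

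Mmp12 shows the shared pattern. Its levels were 14.3, 3.66 and 35.8 CPM in control and 218, 89.0 and 127 with the antibody alone (2.78 ± 0.46, adjusted p = 0.00496), beside the change of 3.69 with the peptide. H2-K1 was at 1499.7, 1397 and 2311 CPM in control and 5011, 3599.8 and 3389 with the antibody alone (1.20 ± 0.25), close to its change of 1.04 with the peptide. Irf1 passed without the peptide (1.28 ± 0.32, adjusted p = 0.05, just under the threshold) and not with it (0.28), and so did Tap1 (1.44 ± 0.33, against 0.71). Whether their changes differed is given by the test of the difference, which neither passed (adjusted p = 0.43 for Irf1 and 0.583 for Tap1). The median of the interferon gamma list was 0.12 with the peptide and 0.70 without it, that of the uptake receptors 1.19 and -0.19, and that of the chemokine ligands 0.95 and 0.28. Whether a list's medians differ was not tested.

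**Figure D5:**
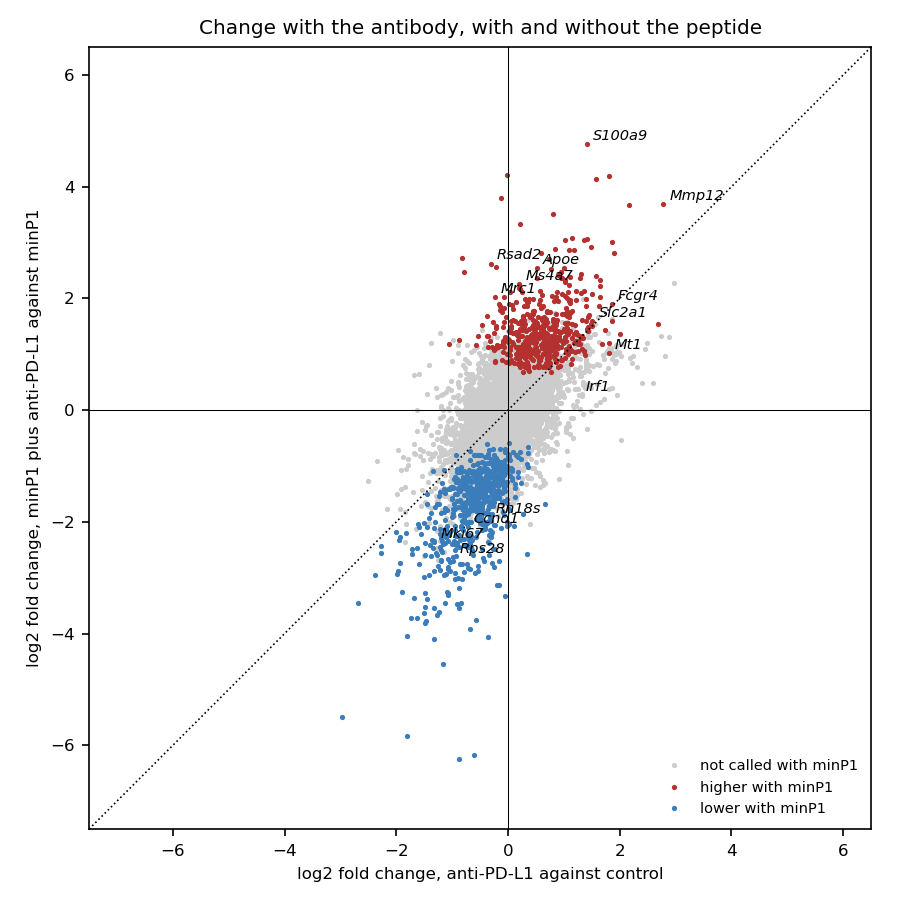
Each dot is 1 of the 5443 genes, with the antibody's log2 fold change without the peptide (anti-PD-L1 minus control) on the horizontal axis and with it (combination minus minP1) on the vertical axis. The dotted line marks equal change, and red and blue mark genes called higher and lower with the peptide. Genes called in the combination lie mainly in the quadrants of equal sign, and Pearson's r across genes was 0.638.

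No gene passed the test of the difference between the antibody's change with and without the peptide in edgeR (0 of 5443, smallest adjusted p = 0.0705). At an unadjusted p under 0.05 there were 600 genes (11.0%), DESeq2 called 11 and limma voom 0. With 1 of the 12 libraries left out, edgeR called 0 to 8, the most without anti-PD-L1 replicate 1. The smallest p-values belonged to Mrc1 and Rsad2. Mrc1 was at 272, 194 and 148 CPM in control and 181, 200.2 and 138 with the antibody alone, and its difference between the changes was 2.26 ± 0.43 (adjusted p = 0.0705). Rsad2 was at 65.8, 21.9 and 58.2 CPM in control and 48.4, 51.9 and 24.1 with the antibody alone, with a difference of 2.93 ± 0.57 (adjusted p = 0.0705). Next in this direction were Ms4a7 (2.06 ± 0.47), Apoe (2.03 ± 0.47) and S100a9 (3.36 ± 0.82), with adjusted p-values of 0.151, 0.151 and 0.181. In the other direction Rn18s (-1.58 ± 0.35), the pseudogene Rps15a-ps5 (-1.99 ± 0.45), Rn45s (-1.4 ± 0.32), Rps28 (-1.65 ± 0.38) and Rpl37a (-1.49 ± 0.37) had the smallest p-values, with adjusted p of 0.151 to 0.181. A p that misses the threshold does not show that the antibody's change was the same with and without minP1.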

How the data were processed

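Each library held 5′ transcript tags from the cells of 1 digested and Percoll-depleted tumour. The authors deposited whole-number counts per gene symbol, with no normalization. The submitters' processing notes name mm10, Bowtie2 2.2.5, R 3.6.1 and DESeq2 without roles. For counting rule, annotation and strand, nothing is given in the sources used here. No batch or date is in the labels. Totals ran from 133917 to 473273 counts over the 12 libraries, which limits precision for low genes, and counting intervals cover counting error only.

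Groups came from sample titles and treatment fields. Of 19921 genes, 5443 passed edgeR's filterByExpr, and they held 89.8% to 93.6% of each library's counts. edgeR 4.0.16 fitted 1 mean per group over all 12 libraries (TMM scaling, quasi-likelihood F test, Benjamini-Hochberg threshold 0.05), with the contrasts combination minus minP1, anti-PD-L1 minus control, and their difference. CPM used TMM-scaled totals, and standard errors were the log2 fold change divided by the root of F. Ratios of low counts have exact 95% intervals. The script was tested on simulated data. Replicates are separate mice, 3 a group. Correlations between same-numbered libraries were -0.130, 0.167 and 0.209 for minP1 and the combination, and 0.135, 0.0921 and 0.0533 for control and anti-PD-L1. In none of the 6 pairs of groups were all 3 above 0.1, so the numbers were not taken to pair the libraries.

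The gene lists and the comparison were chosen with earlier results of these data known. Genes were named by a rule: up to 15 called genes in each direction with the largest change, at least 20 CPM in 1 group and no overlap, the 4 tested members of a list with the smallest p, 11 genes of interest, and up to 5 in each direction for the difference of changes. Not every gene that the rule takes is named above. The pattern for mitochondrial symbols was corrected after the symbols were seen. Named after their values were seen, outside the rule, were Adgre1, Arg1, Atp5a1, Bc1, C1qa, C1qb, C1qc, Ccl2, Ccl6, Ccl9, Ccr2, Cd3e, Cd4, Cd68, Cdt1, Cenpa, Col1a1, Csf1r, Cxcl10, Cxcl2, Eif4a2, Foxp3, Gsn, H2-Aa, H2-Ab1, H2-D1, H2-T23, Ifit1, Il1b, Irf8, Isg15, Krt8, Lrrc17, Ly6c2, Ly6g, MT-Co3, Mmp13, Mmp14, Mt2, Nfkbia, Pdgfra, Pgk1, Rpl32, Rpl4, Rplp0, Rps2, Rps27a, S100a6, S100a8, Spp1, Tap1, Tap2, Timp1, Timp3, Tnf and Txnrd1. Alternatives were RLE scaling, no filter, a stricter filter, DESeq2 1.42.0, limma voom (limma 3.58.1), the 6 libraries alone, a replicate block, thinning to equal depth, the Bc1 and Lrrc17 level or the genes detected as a covariate, leaving out ribosomal RNA, mitochondrial, Bc1 and Lrrc17 counts, and leaving out each library.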

Additional observations from a re-analysis of the deposited data

How the results depend on the processing

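Of 5443 genes tested, 1088 were called between the combination and minP1 (500 higher, 588 lower). After thinning to equal depth, 702 of 2803 genes tested were called (333 higher and 369 lower). With the Bc1 and Lrrc17 level as a covariate, 586 of 5443 were called (263 and 323), and with the genes detected as a covariate 282 (111 and 171). With 1 library left out the calls ranged from 600 to 1346 (289 to 692 higher, 301 to 654 lower). RLE scaling (1096), no filter (1003, of 19921 genes tested), the stricter filter (976, of 4293), DESeq2 (799, of 5245), limma voom (906), the 6 libraries alone (855, of 3817) and counts without ribosomal RNA, mitochondrial, Bc1 and Lrrc17 tags (1076) stayed within 1.5 times. So did the replicate block (1234), whose numbers were not taken to pair the libraries. Between minP1 and the combination number 3 alone correlated best with its own number, between control and anti-PD-L1 numbers 1 and 2 did, and between control and minP1 all 3 did. For the antibody alone, 61 calls became 167 with no filter (of 19921 genes tested), 106 with DESeq2 (of 1383), 173 with the replicate block and 27 after thinning (of 2803). They became 29 and 1 with the 2 covariates, and 1 to 106 with 1 library left out. For the difference of the changes, 0 calls became 37, 11, 16, 35 and 4 with no filter, DESeq2, the replicate block and the 2 covariates, and 0 to 8 with 1 library left out. No filter and DESeq2 tested 19921 and 7176 genes for this difference. The cause of these changes was not tested. The genes-detected measure does not overlap between minP1 and the combination and there cannot be told apart from the antibody, whereas control and anti-PD-L1 overlap in it.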
